A study of Homo sapiens with 2 samples.

Results

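The 29 genes described here encode enzymes and regulators of cholesterol and fatty acid synthesis, out of 30796 genes in the deposited matrix. They were chosen by name and matched to the Ensembl identifiers of the files, and all 29 were found. They fall into 7 genes of the mevalonate pathway, 11 genes that lead from squalene to cholesterol, 4 regulators and 7 genes of fatty acid synthesis and desaturation. The first 18 are called sterol genes below. The genes were measured in single cells of MDAMB468 and CAL51, human triple-negative breast cancer cell lines, with 1 Drop-seq library per line and no treatment named in the labels. Drop-seq captures the RNA of 1 cell on 1 bead inside an oil droplet and tags every molecule, so that molecules (unique molecular identifiers, UMIs) rather than reads are counted per cell barcode.

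Cells make cholesterol from acetyl-CoA. The mevalonate pathway turns it into isoprenoid units, these are joined into squalene, and squalene is closed into a ring and trimmed to cholesterol. The same acetyl-CoA is lengthened to palmitate and then elongated and desaturated into longer and unsaturated fatty acids. When sterols in the endoplasmic reticulum are scarce, the SREBP transcription factors are cut free from the membrane and switch on genes of both branches, and INSIG proteins hold them back when sterols are plentiful.

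The MDAMB468 library held 306 barcodes and 5501900 UMIs, and the CAL51 library 1377 barcodes. The sequences of 31 CAL51 barcodes also occurred in MDAMB468 and were left out of CAL51, which left 1346 barcodes and 16223444 UMIs. A level is a gene's UMIs scaled to CPM, counts per 1e6 UMIs of the line, with an exact 95% Poisson interval. With 1 library per line there was no replicate check, no p-value was computed, and a difference between the lines cannot be told apart from a difference between the cultures or libraries. All intervals cover counting error only. The 6 epithelial marker genes summed to 5105 CPM in MDAMB468 and 2788 CPM in CAL51, where KRT7 was at 0. Most of the CAL51 sum came from KRT18 at 1555 CPM and KRT8 at 919 CPM, and EPCAM gave 283 CPM. CDH1 stood at 33.1 CPM in MDAMB468 and 0.431 CPM in CAL51, and KRT19 at 1934 and 30.6 CPM. Markers of leukocytes and adipocytes stayed at or below 1.27 CPM as sums in both lines, and endothelial markers summed to 19.6 CPM in MDAMB468, of which KDR gave 18.5 CPM. A measure of CAL51 RNA in the MDAMB468 library came from APOE and APOC1, neighbouring genes that gave 11596 UMIs in CAL51 and 1 UMI in MDAMB468.

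As a whole the 29 genes took nearly the same share of the counted UMIs in both lines. The summed sterol genes and the summed fatty acid genes differed in opposite directions. All 29 summed to 2307 CPM in MDAMB468 and 2316 CPM in CAL51, a ratio of 0.996 (0.976 to 1.016), which was not computed under other scalings. The 18 sterol genes summed to 1909 CPM in MDAMB468 and 1291 CPM in CAL51, 1.48-fold higher in MDAMB468 (1.44 to 1.51). The 7 fatty acid genes summed to 296 CPM in MDAMB468 and 928 CPM in CAL51, 3.14-fold higher in CAL51 (2.98 to 3.30). Without SCD, FADS1 and FADS2 the fatty acid ratio of MDAMB468 over CAL51 was 0.965 (0.894 to 1.04). Of the 29 genes, 5 were at least 2-fold higher in MDAMB468, against 18.9% of the 15347 genes with at least 20 UMIs over both lines. In the other direction 4 were at least 2-fold higher in CAL51, against 22.4% of those genes. Both counts, 17.2% and 13.8% of the 29, lie below those shares. The median log2 ratio of MDAMB468 over CAL51, taken on CPM + 1, was 0.27 for the 29 genes and -0.13 for the 15347.

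**Figure D1:**
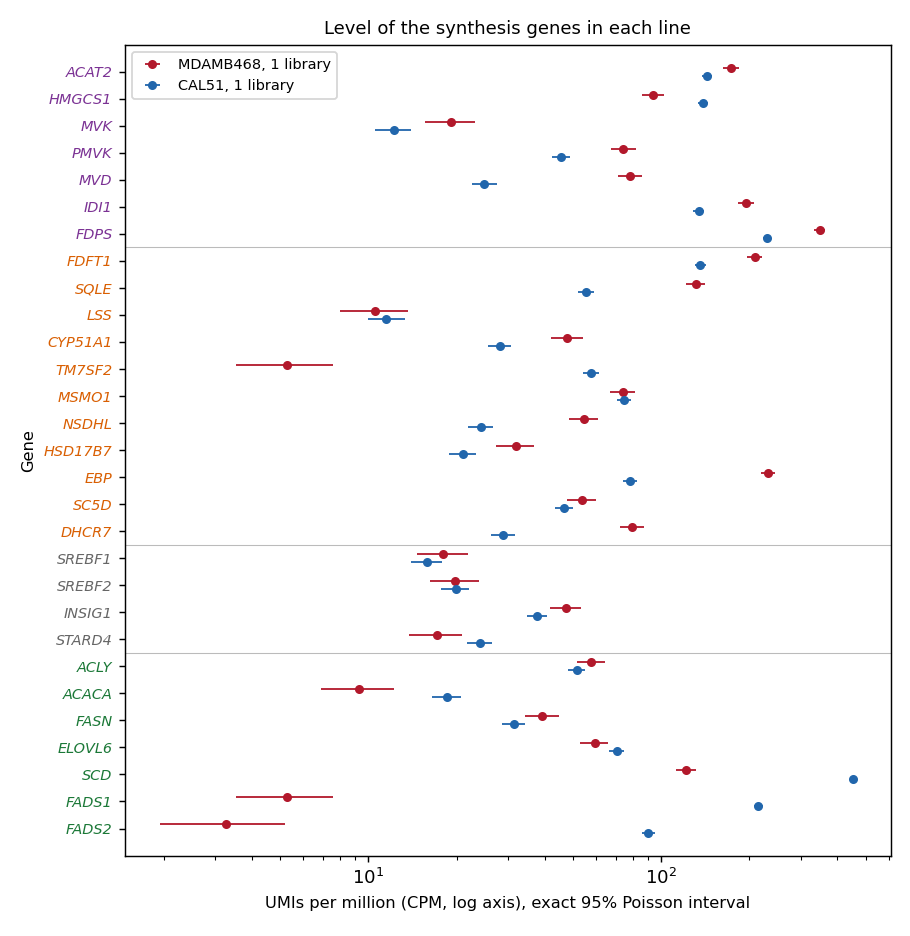
Level of each gene in the 2 libraries as CPM on a log axis, with exact 95% Poisson intervals. Genes are ordered by role, separated by grey lines: mevalonate pathway, squalene to cholesterol, regulators and fatty acids. FADS1 and FADS2 lie farthest apart, at 5.27 and 3.27 CPM in MDAMB468 and 215 and 90.2 CPM in CAL51.

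In the mevalonate pathway 6 of 7 genes were higher in MDAMB468, and 1 of them by 2-fold or more. Of all genes tested, 6893 of 15347 were higher in MDAMB468, and 18.9% by 2-fold or more. MVD, the decarboxylase that makes isopentenyl diphosphate, stood at 78.2 CPM (70.9 to 85.9) in MDAMB468 and 24.9 CPM (22.5 to 27.4) in CAL51. Its ratio of 3.14 (2.73 to 3.60) was the highest of the 29 genes. The kinases that act before it differed less, MVK with a ratio of 1.56 (1.22 to 1.99) and PMVK with a ratio of 1.63 (1.44 to 1.84). IDI1, which isomerises isopentenyl diphosphate, stood at 195 CPM in MDAMB468 and 134 CPM in CAL51. FDPS, the synthase of farnesyl diphosphate, stood at 347 CPM in MDAMB468 and 230 CPM in CAL51, and 8 annotated pseudogenes carry its name, so that reads may have been divided among them. ACAT2, a thiolase that joins units of acetyl-CoA, had a ratio of 1.21 (1.12 to 1.30). The exception was HMGCS1, the synthase that makes HMG-CoA: it stood at 93.6 CPM (85.7 to 102.0) in MDAMB468 and 139 CPM (133 to 145) in CAL51, 1.48-fold higher in CAL51 (1.35 to 1.63).

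Among the 11 genes from squalene to cholesterol, 4 were at least 2-fold higher in MDAMB468 and 1 was at least 2-fold higher in CAL51, beside 18.9% and 22.4% of all genes tested. EBP, the isomerase that moves a double bond of the sterol ring, stood at 232 CPM (220 to 246) in MDAMB468 and 78.0 CPM (73.8 to 82.5) in CAL51, a ratio of 2.98 (2.75 to 3.22). DHCR7, which reduces 7-dehydrocholesterol to cholesterol, stood at 79.6 CPM (72.3 to 87.4) in MDAMB468 and 28.8 CPM (26.3 to 31.6) in CAL51, a ratio of 2.76 (2.42 to 3.15). SQLE, the epoxidase of squalene, had a ratio of 2.36 (2.14 to 2.61), from 131 CPM in MDAMB468 and 55.4 CPM in CAL51. NSDHL, a sterol dehydrogenase of the demethylation steps, had a ratio of 2.25 (1.93 to 2.62), and the lower end of that interval falls under 2-fold. All 4 act at different steps. Apart from TM7SF2, described below, the other genes of this group differed less. FDFT1, squalene synthase, had a ratio of 1.54 (1.43 to 1.65). CYP51A1, the lanosterol demethylase, had a ratio of 1.70 (1.46 to 1.99), and 3 annotated pseudogenes carry its name. HSD17B7, a ketoreductase, had a ratio of 1.51 (1.25 to 1.82). For 3 further genes the interval of the ratio held 1: LSS, which closes squalene epoxide into lanosterol, at 0.915 (0.669 to 1.23), MSMO1, a sterol methyl oxidase, at 0.992 (0.884 to 1.11), and SC5D, a sterol desaturase, at 1.15 (0.998 to 1.31). An interval that holds 1 does not show that levels are equal.

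TM7SF2, a sterol reductase whose step can also be carried out by LBR, went the other way. It gave 29 UMIs or 5.27 CPM (3.53 to 7.57) in MDAMB468 and 935 UMIs or 57.6 CPM (54.0 to 61.4) in CAL51, 10.9-fold higher in CAL51 (7.56 to 16.4). In GENCODE release 29 (GRCh38) the gene lies on chromosome 11 at 65111845 to 65116384, and exons of VPS51 on the same strand overlap it. VPS51 stood at 27.4 CPM in MDAMB468 and 27.8 CPM in CAL51, a ratio of 0.987 (0.816 to 1.19), and ZNHIT2 on its other side had a ratio of 1.91 (1.48 to 2.44). Neither neighbour was lower in MDAMB468 by 2-fold. LBR, the other reductase, stood at 188 CPM in MDAMB468 and 253 CPM in CAL51, a ratio of 0.742 (0.692 to 0.794).

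None of the 4 regulators differed by 2-fold. SREBF2, which encodes the SREBP that mainly drives sterol genes, stood at 19.8 CPM (16.3 to 23.9) in MDAMB468 and 19.8 CPM (17.7 to 22.1) in CAL51. SREBF1, whose products mainly drive fatty acid genes, had a ratio of 1.14 (0.891 to 1.44). INSIG1, which retains SREBPs in the endoplasmic reticulum, stood at 47.3 CPM (41.7 to 53.4) in MDAMB468 and 37.7 CPM (34.7 to 40.8) in CAL51, a ratio of 1.25 (1.08 to 1.45). STARD4, a carrier of cholesterol between membranes, was 1.40-fold higher in CAL51 (1.12 to 1.78). SREBP activity is set largely by cleavage of the protein, which these counts do not measure.

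The difference in fatty acid genes rested on the 3 desaturases. FADS1, the delta-5 desaturase of polyunsaturated fatty acids, gave 29 UMIs or 5.27 CPM (3.53 to 7.57) in MDAMB468 and 3482 UMIs or 215 CPM (208 to 222) in CAL51, 40.7-fold higher in CAL51 (28.3 to 60.9). With every barcode given equal weight, the FADS1 ratio of MDAMB468 over CAL51 fell from 0.0246 to 0.0146, below the interval of 0.0164 to 0.0353. FADS2, the delta-6 desaturase, gave 18 UMIs or 3.27 CPM (1.94 to 5.17) in MDAMB468 and 1464 UMIs or 90.2 CPM (85.7 to 94.98) in CAL51, 27.6-fold higher in CAL51 (17.4 to 46.7). SCD, the stearoyl-CoA desaturase that makes monounsaturated fatty acids, stood at 122 CPM (113 to 131) in MDAMB468 and 451 CPM (441 to 462) in CAL51, 3.71-fold higher in CAL51 (3.42 to 4.02). A sum without these 3 genes was not planned, and leaving out the genes called higher in CAL51 had to move the ratio towards 1. Without these 3 genes the other 4 summed to 166 CPM in MDAMB468 and 172 CPM in CAL51, a ratio of 0.965 (0.894 to 1.04).

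Those 4 make and lengthen the saturated chain. ACLY, which makes cytosolic acetyl-CoA from citrate, had a ratio of 1.12 (0.985 to 1.28). FASN, the fatty acid synthase, stood at 39.3 CPM in MDAMB468 and 31.4 CPM in CAL51, a ratio of 1.25 (1.06 to 1.47). ELOVL6, which elongates palmitate, had a ratio of 0.842 (0.742 to 0.953). ACACA, the acetyl-CoA carboxylase, had a ratio of 0.501 (0.365 to 0.676), just inside the 2-fold limit, and passed that limit under 4 of 7 other treatments of the data.

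**Figure D2:**
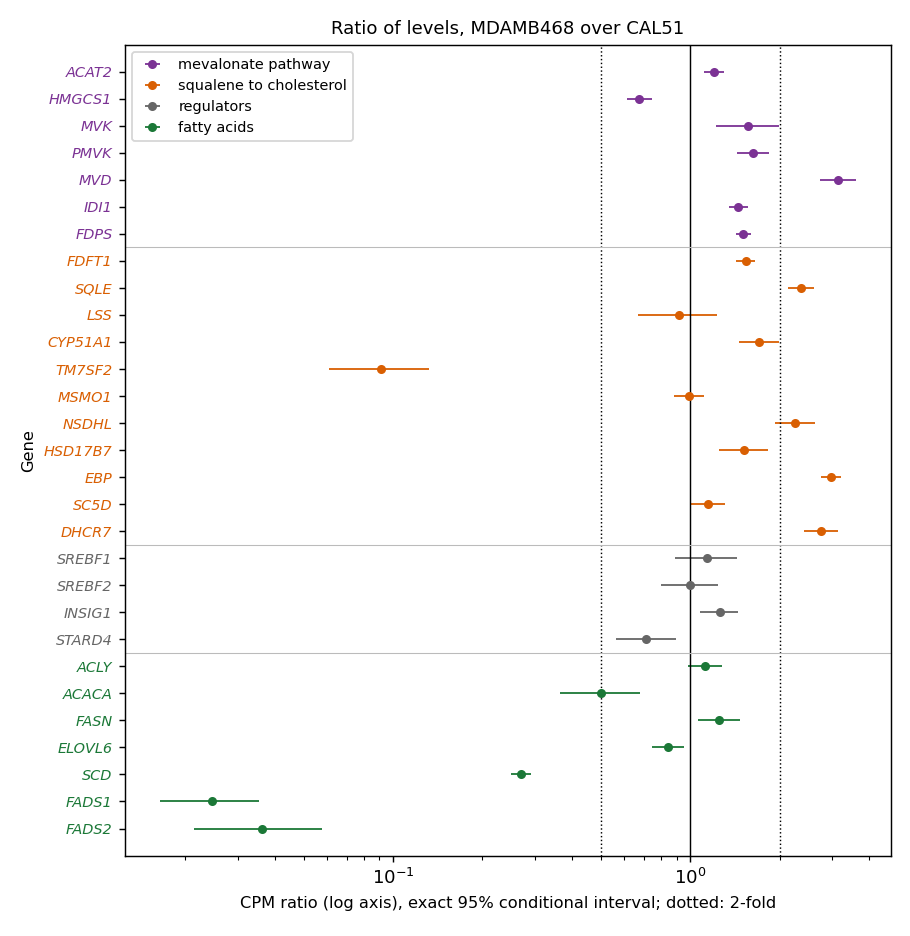
Ratio of levels, MDAMB468 over CAL51, on a log axis with exact 95% conditional intervals. The dotted lines mark 2-fold in each direction and colours mark the role. The 3 desaturases and TM7SF2 lie to the left of the dotted line at 0.5, and 5 sterol genes lie to the right of the dotted line at 2.

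FADS1 and FADS2 lie next to each other on chromosome 11 on opposite strands, with overlapping exons, FADS1 at 61799625 to 61829318 and FADS2 at 61792980 to 61867354. No source used here says whether the counting was stranded, so reads from the overlap cannot be assigned to one of them with certainty. Both were far lower in MDAMB468. FEN1, a flap endonuclease gene that starts just before FADS2 and shares exon sequence with it on the same strand, so that reads there are ambiguous too, had a ratio of 0.896 (0.812 to 0.987), and TMEM258 beside it had a ratio of 0.959 (0.910 to 1.01). FADS3, the third gene of the desaturase cluster, gave 21 UMIs in MDAMB468 and 160 in CAL51, 2.58-fold higher in CAL51 (1.63 to 4.29). Within 100 kb 2 further genes passed 2-fold, in opposite directions. MYRF gave 2 UMIs in MDAMB468 and 28 in CAL51, and BEST1 was 2.09-fold higher in MDAMB468 (1.80 to 2.42).

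Of 30 other genes of lipid metabolism, 29 had at least 20 UMIs. At least 2-fold higher in MDAMB468 were 8 of them, and 3 were at least 2-fold higher in CAL51. These are 27.6% and 10.3% of the 29, beside 18.9% and 22.4% of all genes tested. ME1, the cytosolic malic enzyme that supplies NADPH, gave 209 UMIs in MDAMB468 and 6 in CAL51, 103-fold higher in MDAMB468 (46.4 to 283). ACSL1, an acyl-CoA synthetase, had a ratio of 4.34 (3.27 to 5.78), and MYLIP, a ubiquitin ligase induced by sterols, a ratio of 2.89 (1.92 to 4.36). The 3 lowest ratios were those of ABCA1, a cholesterol exporter with 1 UMI in MDAMB468 and 26 in CAL51, of NPC2, a lysosomal carrier of cholesterol, at 0.412 (0.384 to 0.442), and of HACD3, a dehydratase of fatty acid elongation, at 0.478 (0.445 to 0.512).

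Whether the genes varied together between cells of a line was described after every cell had been thinned to 5000 UMIs, which set all cells to 1 depth. This kept 212 cells of MDAMB468 and 1071 of CAL51 and left out 94 and 275 shallower ones. For each gene, Pearson's r was taken across cells between its log2(UMIs + 1) and that of the summed sterol genes, a sterol gene being left out of its own sum. All points of a line share 1 library, and r has no p-value here. The values come from 1 random thinning. Since they moved with the draw, the mean of r over 20 further draws stands beside them.

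Of the 18 sterol genes in CAL51, 10 had an r of at least 0.1, against 0.543% of 8472 other genes with a mean of at least 0.05 thinned UMIs. Averaged over 20 draws it was 12 of 18, against 0.343% of other genes. The highest values were those of HMGCS1 at 0.352 (0.332 over 20 draws), FDFT1 at 0.325 (0.288), MSMO1 at 0.288 (0.264) and IDI1 at 0.258 (0.235). PMVK was the lowest at -0.045 (0.021). The mevalonate sum and the sum of the squalene and sterol genes, which share no gene, had an r of 0.304 (0.317). The pairs HMGCS1 with IDI1, at 0.303 (0.243), and HMGCS1 with FDFT1, at 0.267 (0.244), had the 2 highest r in the draw described. Most pairs varied together little: the median r of the 153 sterol pairs was 0.032 (0.038), and 22 of them (14 over 20 draws) reached 0.1. No share of pairs of other genes was computed. Among the regulators INSIG1 reached 0.223 (0.189) and STARD4 0.134 (0.113), while SREBF1 stood at 0.008 (0.022) and SREBF2 at 0.048 (0.069).

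**Figure D3:**
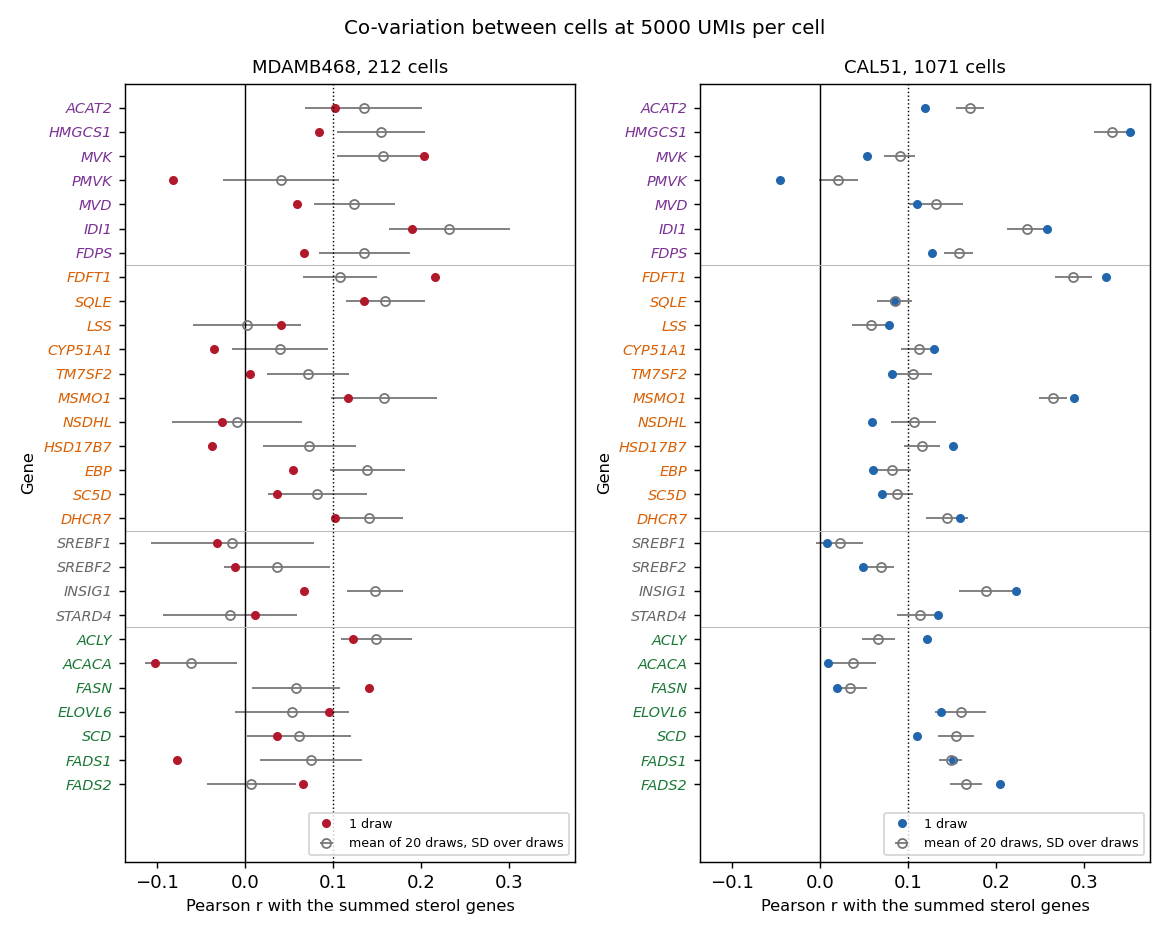
Pearson r between each gene and the summed sterol genes across cells thinned to 5000 UMIs. Filled points are the 1 draw described in the text, open points the mean of 20 further draws with the SD over those draws, and the dotted line marks 0.1. In CAL51 HMGCS1, FDFT1, MSMO1 and IDI1 stand above 0.2 in both, while in MDAMB468 many filled points lie away from the open ones.

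In MDAMB468 the values depended more on the draw. In the draw described, 7 of 18 sterol genes had an r of at least 0.1, against 7.68% of 8331 other genes, and averaged over 20 draws it was 11 of 18, against 1.41%. The median r of the sterol genes was 0.063 in MDAMB468 (0.130 over 20 draws) and 0.114 in CAL51 (0.114). Across those 20 draws taken singly the count ran from 6 to 13 in MDAMB468 and from 9 to 14 in CAL51. The highest r were those of FDFT1 at 0.216 (0.108 over 20 draws), MVK at 0.204 (0.157) and IDI1 at 0.190 (0.233). The mevalonate sum with the squalene and sterol sum had an r of 0.131 (0.252), and single draws ran from 0.085 to 0.334. With 212 cells against 1071, no difference between the lines is read from these values.

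The size of the variation in CAL51 was described by comparing cells at or below the 25th percentile of the sterol sum with cells at or above the 75th, each sterol gene again being left out of its own sum. MSMO1 went from a mean of 0.151 to 0.681 UMIs per cell, 4.50-fold (3.21 to 6.46), and 3.16-fold over 20 draws. HMGCS1 went from 0.352 to 1.18 UMIs per cell, 3.34-fold (2.68 to 4.20), and FDFT1 from 0.386 to 1.30, 3.37-fold (2.72 to 4.20). INSIG1 went from 0.106 to 0.315 UMIs per cell, 2.98-fold (2.05 to 4.40). Larger ratios of genes with few UMIs shrank when averaged: HSD17B7 had 4.52 in 1 draw and 2.66 over 20, and DHCR7 3.996 and 2.50. Of the 18 sterol genes, 13 had an interval above 1 in the draw described, and 16 had one over 20 draws. No share of other genes with such an interval was computed, so how unusual either count is was not tested. Lower ratios among the 13 were those of SQLE at 1.57, ACAT2 at 1.55, TM7SF2 at 1.43 and FDPS at 1.41. The interval held 1 for MVK at 1.92, SC5D at 1.37, NSDHL at 1.30, EBP at 1.15 and PMVK at 0.757. Over 20 draws it held 1 for PMVK at 1.08 and LSS at 1.85 only. The fatty acid genes lay within the range of the sterol genes. Of the desaturases, FADS2 stood at 1.92-fold (1.54 to 2.40), FADS1 at 1.56-fold (1.35 to 1.81) and SCD at 1.31-fold (1.19 to 1.45). ELOVL6 at 1.68-fold (1.32 to 2.13) and ACLY at 1.67-fold, with an interval above 1, stood above FADS1 and SCD. FASN had a ratio of 0.946 (0.644 to 1.39) and ACACA one of 1.05 (0.596 to 1.83). Over 20 draws ELOVL6 had 2.002 (1.55 to 2.60), against 1.85 for FADS2. The interval over 20 draws held 1 for ACLY at 1.32, ACACA at 1.40 and FASN at 1.18. These groups of cells were cut from a sum of few UMIs per cell, with a median of 6 in CAL51, and are ranges rather than cell types.

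**Figure D4:**
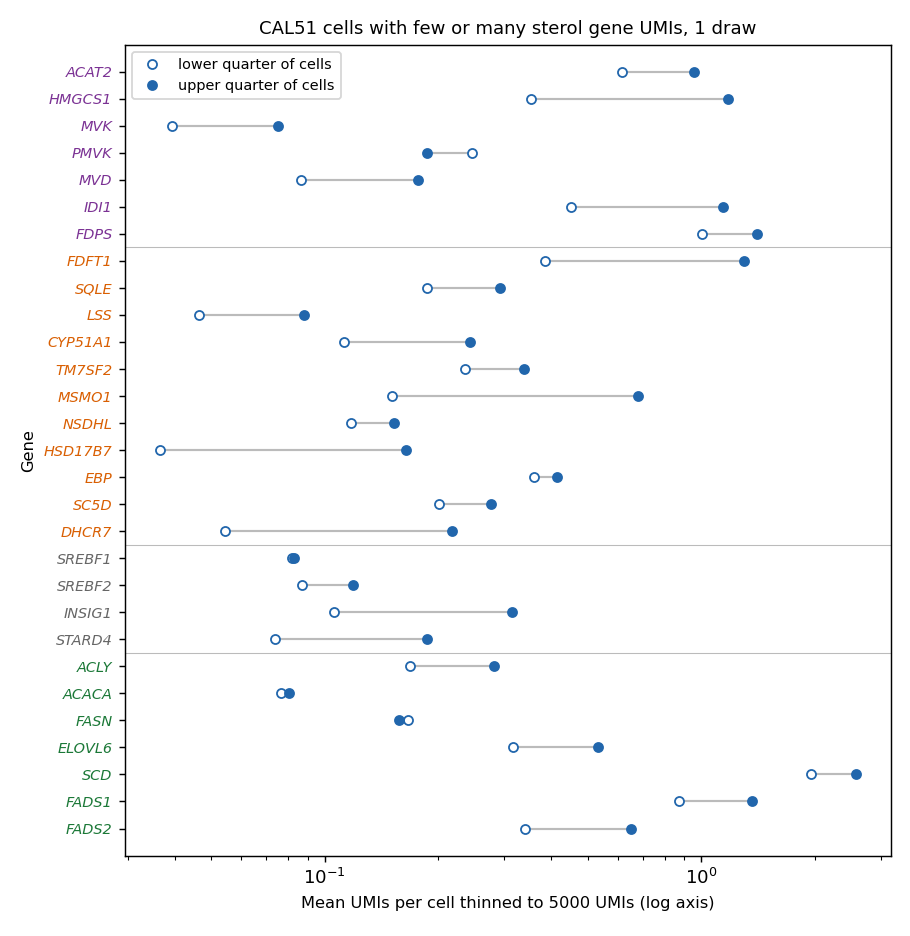
Mean UMIs per CAL51 cell, on a log axis, in cells at or below the 25th percentile (open) and at or above the 75th percentile (filled) of the summed sterol genes, after thinning to 5000 UMIs in 1 draw. MSMO1, HSD17B7 and DHCR7 span 3.996-fold or more, while SREBF1, ACACA and FASN have nearly equal means.

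The sterol and the fatty acid sums had an r of 0.239 in CAL51 (0.249 over 20 draws) and 0.145 in MDAMB468 (0.149). In CAL51 the r of the sterol sum was 0.207 with the 3 desaturases and 0.163 with the other 4 fatty acid genes. In MDAMB468 it was 0.042 (0.072) with the desaturases and 0.148 (0.132) with the other 4, with an SD over draws of 0.054 and 0.043. FADS1 and FADS2 averaged 0.0047 and 0.014 thinned UMIs per MDAMB468 cell and SCD 0.538, so that desaturase sum was mostly SCD. No difference between the lines is read from these values. Other sums moved with the sterol sum too. In MDAMB468 its r with the sum of 52 genes of the G2 and M phases was 0.262 (0.259), and in CAL51 it was -0.020 (-0.010). The r with 40 genes of S phase was 0.097 in MDAMB468 (0.001) and -0.065 in CAL51 (-0.076). In CAL51 the r with ribosomal protein genes was -0.155 (-0.146) and that with the number of detected genes 0.160 (0.156). In MDAMB468 these were -0.019 (-0.082) and 0.078 (0.149). With the mitochondrial sum the r was -0.155 (-0.162) for MDAMB468 cells and 0.012 (0.024) for CAL51 cells. Apart from a regression on the S and G2/M sums, given below, the part of these sums in the co-variation was not tested. With 16 glycolysis genes the r was 0.065 in MDAMB468 (0.022) and -0.033 in CAL51 (-0.050), and with APOE and APOC1 it was -0.048 in CAL51 (-0.030). With S and G2/M sums regressed out, 10 of 18 sterol genes had an r of at least 0.1 in CAL51 and 4 of 18 in MDAMB468. Without the regression the counts were 10 and 7, and single draws in MDAMB468 ran from 6 to 13. No share of other genes was computed after the regression.

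Genes outside the 29 were ranked by the smaller of their r with the sterol sum in the 2 lines, over 6993 genes. The first 8 held MANF, a secreted protein of the endoplasmic reticulum stress response, with 0.132 in MDAMB468 and 0.119 in CAL51, and ERG28, a scaffold of sterol synthesis enzymes, with 0.116 and 0.118. They also held TSPYL2, COPE, a coatomer subunit, IDH1, the cytosolic isocitrate dehydrogenase, and ZNF160. The ranking was not stable: 4 of its 8 genes were also among the 8 from the mean of 20 draws and 2 among the 8 from a second draw. In MDAMB468 the second draw gave MANF 0.102 and ERG28 0.095, but TSPYL2 -0.045, COPE 0.007 and IDH1 0.008, and in CAL51 it gave ZNF160 0.035. Only MANF and ERG28 of the genes named here were in both the ranking and that from the mean of draws.

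SREBPs act at promoters through sterol regulatory elements, together with NF-Y, which binds CCAAT. RefSeq promoter sequences (GRCh38.p14) were matched for 25 of the 29 genes by symbol, and the 250 bases before each start were searched on both strands. CCAAT occurred upstream of 19 of the 25, and of 13 of the 15 sterol genes matched, against 41.9% of the 10674 matched genes with at least 20 UMIs. TCACNCNAC, a loose form of the sterol element, occurred upstream of 4 of the 25 (FDPS, HSD17B7, SREBF2 and FADS2), of which 2 are among the 15 sterol genes, against 2.57%. The classical sterol regulatory element, searched as 1 fixed sequence, occurred upstream of 1 of the 25, SREBF2, and of 0 of the 15 sterol genes, against 0.0468%. GGGCGG occurred upstream of 24 of the 25, against 74.6%. A match is a description of letters and not a bound site. The windows of HMGCS1 and MSMO1, which had high r in CAL51, of INSIG1, the regulator with the highest r there, and of FDPS, which holds both motifs, are shown 5′ to 3′ on the strand of the gene, ending before the first base that GENCODE 29 annotates as an exon. Capitals mark CCAAT or its reverse complement ATTGG, and in FDPS also TCACNCNAC. They lie at chr5:43313513-43313662 (minus strand), chr4:165327419-165327622, chr7:155297628-155297775 and chr1:155308616-155308747 (plus strand).
HMGCS1: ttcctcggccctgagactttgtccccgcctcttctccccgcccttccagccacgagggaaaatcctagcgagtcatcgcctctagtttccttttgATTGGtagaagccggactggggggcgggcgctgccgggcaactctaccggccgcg
MSMO1: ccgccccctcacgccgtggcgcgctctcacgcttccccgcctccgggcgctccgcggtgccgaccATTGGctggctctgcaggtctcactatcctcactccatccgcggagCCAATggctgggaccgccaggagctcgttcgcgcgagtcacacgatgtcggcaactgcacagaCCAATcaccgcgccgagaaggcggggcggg
INSIG1: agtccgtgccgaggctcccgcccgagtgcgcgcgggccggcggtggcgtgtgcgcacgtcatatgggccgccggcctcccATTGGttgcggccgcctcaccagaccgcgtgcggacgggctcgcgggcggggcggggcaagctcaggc
FDPS: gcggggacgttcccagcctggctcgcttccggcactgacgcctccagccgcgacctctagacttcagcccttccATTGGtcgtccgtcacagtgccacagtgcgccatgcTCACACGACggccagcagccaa
The stretch of MSMO1 holds the CCAAT letters 3 times, and those of the other 3 genes once each.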

How the data were processed

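Drop-seq UMI counts of 306 MDAMB468 and 1377 CAL51 barcodes were used as deposited by the authors: whole-number counts per gene and barcode, with no normalisation visible. STARsolo is named in the submitters' processing notes. Its version, the build and annotation, and whether strand was used, were not given in the sources used here. Symbols came from a gene name table (30730 of 30796 identifiers) and positions from GENCODE 29 (GRCh38), by identifier.

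Counts were summed per line and scaled to CPM. Ratios carry exact conditional 95% intervals. A call needed at least 2-fold and 20 UMIs over both lines, and log2 ratios used CPM + 1. The lowest barcode total was 2501 UMIs and no further filter or doublet removal was applied. Co-variation used cells thinned to 5000 UMIs. Scripts were tested on simulated data. The tools were R 4.3.3 with edgeR 4.0.16 for TMM factors, and Python 3.11.15 with matplotlib 3.10.9, pandas 2.3.3, scipy 1.17.1 and numpy 2.4.6.

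The thinning was changed after its first results had been seen. The first version drew all cells of a line from 1 random stream, so that leaving out some barcodes redrew every other cell. It was replaced by a stream of its own for each cell, and this second version gives the values described as 1 draw. Because the results differed between these versions, a mean over 20 further draws was added, also after seeing the data. All 3 versions are given in the closing section. The second was kept as the main one because a single draw was the design, not for its values.

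The 29 genes and the lists were chosen with earlier results of these data known. All 29 are described. Of the other lipid genes, the 3 highest and 3 lowest ratios with at least 20 UMIs are named, and from the co-variation ranking the first 8 genes, of which some are not reported here. Other genes, such as neighbours on the chromosome, were picked out after their values were seen. Scaling, barcode sets, pseudocounts, thinning depth, a second draw, rank correlation and cell cycle regression were tried as alternatives.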

Additional observations from a re-analysis of the deposited data

Results flagged for a closer look

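One value lies in barcodes that were left out of the comparisons of the report and used only in the alternative that keeps them. In the 31 CAL51 barcodes whose sequence is also an MDAMB468 barcode, the 18 sterol genes summed to 2011 CPM (1779 to 2265), from 272 UMIs. The same sum was 1909 CPM in MDAMB468 and 1291 CPM in the CAL51 barcodes used. The fatty acid genes in the shared barcodes summed to 392 CPM (294 to 513), against 296 CPM in MDAMB468 and 928 CPM in CAL51, and FADS2 had 0 UMIs there. KRT7 gave 106 UMIs in the shared barcodes, 5243 in MDAMB468 and 0 in the CAL51 barcodes used. APOE and APOC1 gave 10 and 12 UMIs in the shared barcodes. From which line the RNA of these barcodes came was not tested.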

How the results depend on the processing

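No paired analysis was possible because each line has 1 library. Of 203 values of single genes under 7 alternatives, none changed direction where the gene was called. MSMO1 and SREBF2, with ratios near 1, changed side of 1 under some. Outside the interval of the main ratio lay 20 of the 203 values. With equal weight per barcode the ratio fell from 0.0246 to 0.0146 for FADS1 and from 2.76 to 2.24 for DHCR7. Both left their intervals, as did the ratios of CYP51A1, FDFT1 and STARD4. ACACA alone changed its call, being at least 2-fold higher in CAL51 with TMM factors, with medians of ratios, with shared barcodes kept and without satellite barcodes (1 base from a barcode with at least 5 times its UMIs). Of the 306 MDAMB468 barcodes 64 were satellites, and 4 of these held at least 5000 UMIs. Of the 1346 CAL51 barcodes 7 were satellites, and 2 of these were as deep. Equal weight per barcode counted every satellite in full, and its part in those ratios was not tested. TMM and median-of-ratios scaling moved the median log2 ratio of all genes from -0.13 to -0.24 and -0.25, and that of the 29 genes from 0.27 to 0.14 and 0.12. The sterol ratio became 1.35 with TMM, 1.34 with medians of ratios, 1.59 on totals without mitochondrial and ribosomal protein genes, 1.42 with equal weight per barcode and 1.54 without TM7SF2. The fatty acid ratio became 0.291, 0.288, 0.342 and 0.302 in the same order, and 0.965 without SCD, FADS1 and FADS2. The sums without TM7SF2 and without the desaturases were not planned.

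The co-variation values moved with the draw and with the thinning depth. A change of depth also changed the cells, from 212 at 5000 UMIs to 306 at 2500 and 153 at 10000 in MDAMB468, and from 1071 to 1346 and 558 in CAL51, so that depth and cells cannot be told apart. The 306 and 1346, used at 2500 UMIs and without thinning, include all satellite barcodes. The number of sterol genes with an r of at least 0.1 was 7 in MDAMB468 and 10 in CAL51 in the draw described, 9 and 13 in the version it replaced, and 11 and 12 as the mean of 20 draws. In MDAMB468 the count was 12 at 10000 UMIs, 11 in a second draw, 4 with Spearman's correlation, 13 without thinning and 4 with the cell cycle regressed out. In CAL51 it was 6 at 2500 UMIs, 15 at 10000 UMIs and 14 without thinning. The share of other genes with such an r moved too. In MDAMB468 that share was 11.9% at 10000 UMIs and 8.73% in the second draw. In CAL51 the share was 0.156% at 2500 UMIs and 2.42% at 10000 UMIs. It was not computed for Spearman's correlation, without thinning or with the cell cycle regressed out. The r of the mevalonate with the squalene and sterol sum in MDAMB468 was 0.131 in the draw described, 0.211 in the replaced version, 0.252 as the mean, 0.403 at 10000 UMIs and 0.271 in a second draw. In CAL51 it was 0.202 at 2500 UMIs, 0.465 at 10000 UMIs and 0.383 without thinning. The r of the sterol with the fatty acid sum was 0.080 in MDAMB468 in the replaced version, and in CAL51 it was 0.314 at 10000 UMIs. Of the first 8 genes most like the sterol sum, 4 were shared between the draw described and the replaced version. The cause was not tested. MDAMB468 has few deep cells, and its co-variation values are imprecise.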
